A study of Mus musculus with 10 samples.

Results

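The unfolded protein response (UPR) and the chaperones of the endoplasmic reticulum (ER) were examined in cultured mouse macrophages as 34 listed genes. The genes were given by symbol and matched to the gene IDs of the count table through the ID and symbol columns of the deposited log2 table. All 34 were found among the 54307 genes of the count table, and 33 of them were among the 12411 genes expressed strongly enough to be tested. Chac1 had too few counts for the test and is described by its counts. The members comprise 11 ER chaperones and co-factors, 4 protein disulfide isomerases, 6 stress sensors and transcription factors, 5 targets of the integrated stress response, 6 genes of ER-associated degradation and 2 genes of translocation into the ER.

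The cells were bone-marrow-derived macrophages, grown in culture from marrow precursors, and their poly(A)+ RNA was sequenced. The control group is 5 wild-type mice, and the other group is 5 mice with hWDFY3 knocked in on both alleles (KI/KI), labelled as human WDFY3 overexpression. WDFY3 (ALFY) is a scaffold that brings cargo to autophagosomes. The comparison asks how the macrophage transcriptome differs with the knock-in.

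Every mouse in both groups was labelled male and 6 to 8 weeks old. Marrow from femurs and tibiae was grown in medium with 20% L-929-conditioned medium, a source of macrophage growth factor, and all cells were harvested at day 7. No stress agent or other treatment is named in the labels for either group. For the strain, for the locus and promoter of the knock-in and for the number of founder lines nothing is stated in the sources used here. Only mouse genes were counted, and human WDFY3 RNA was not measured here. In bulk RNA, fewer cells of a type and less RNA per cell cannot be told apart.

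The ER is where secreted and membrane proteins fold, and macrophages make many of these, including lysosomal enzymes, receptors and cytokines. When unfolded proteins accumulate there, the sensors IRE1, PERK and ATF6 signal to the nucleus: IRE1 splices the Xbp1 mRNA, ATF6 is cut to release a transcription factor, and PERK slows translation while favouring that of ATF4. XBP1 and ATF6 are known to raise chaperone and degradation genes, and ATF4 with CHOP raises genes of amino acid supply and recovery of translation. Gene-level counts measure the amount of each mRNA, not Xbp1 splicing, ATF6 cleavage or protein phosphorylation.

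RefSeq promoters (GRCm38.p6, 250 bases before to 50 bases after the start of transcription) were found for 30 of the 34 genes. They were searched on both strands for the ER stress element, written here as CCAAT followed by 9 bases of any kind and then CCACG, which is the element known to bind ATF6 with NF-Y. This element was present in 8 of the 30 promoters (26.7%), against 39 of all 32851 promoters in the table (0.119%). Here and for the motifs below, the 30 are counted by gene and the 32851 by promoter entry. The genes and the motifs were both picked as parts of the stress response, so the shares are descriptions and no test. The 8 genes were Calr, Canx, Creld2, Dnajc3, Hsp90b1, Hspa5, Pdia6 and Syvn1, and Hsp90b1 held the element at 2 places. Sites are shown for the 3 of these genes with the highest level per kb. The capitals mark the element, and CGTGG on the left shows that it lies on the opposite strand:
Calr: caacgCGTGGTCGACCCTCATTGGcccata
Hsp90b1, far site: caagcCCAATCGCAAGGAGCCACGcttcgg
Hsp90b1, near site: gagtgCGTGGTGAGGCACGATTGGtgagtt
Hspa5: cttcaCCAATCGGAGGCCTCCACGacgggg

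Each line is a window of 30 bases read 5′ to 3′ in the direction of the gene. The Calr window is chr8:84847069-84847098 (minus strand), and its element starts 162 bases before the RefSeq start. The Hsp90b1 windows are chr10:86705632-86705661 and chr10:86705527-86705556 (minus strand), with elements that start 212 and 107 bases before the RefSeq start. The Hspa5 window is chr2:34772020-34772049 (plus strand), and its element starts 65 bases before the RefSeq start and lies in an exon of a GENCODE M21 transcript. Both Hsp90b1 elements fall in the 185 bases upstream of the gene's GENCODE boundary, chr10:86705510-86705694 (minus strand), which show how close together they lie:
Hsp90b1 upstream: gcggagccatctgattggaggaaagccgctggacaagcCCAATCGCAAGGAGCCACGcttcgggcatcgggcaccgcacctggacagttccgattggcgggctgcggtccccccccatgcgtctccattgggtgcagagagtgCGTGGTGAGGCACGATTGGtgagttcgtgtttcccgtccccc

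The composite site TGATGNAA, known to bind ATF4 with C/EBP proteins, was present in 4 of the 30 promoters (13.3%), namely those of Asns, Chac1, Herpud1 and Trib3. It was present in 1304 of all 32851 promoters (3.97%). The UPR element TGACGTGG, known to bind XBP1, was in none of the 30 and in 222 of all promoters (0.676%). The match is shown in capitals for the 3 of these genes with the highest level per kb, to set the known ATF4 targets Asns and Trib3 beside the degradation gene Herpud1:
Herpud1: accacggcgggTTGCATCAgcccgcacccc
Asns: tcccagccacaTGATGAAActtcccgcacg
Trib3: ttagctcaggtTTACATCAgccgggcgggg

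The windows are chr8:94386306-94386335 (plus strand), chr6:7693214-7693243 (minus strand) and chr2:152344028-152344057 (minus strand). In Herpud1 and Trib3 the match is on the strand opposite to the gene. The Herpud1 match starts 112 bases and the Asns match 23 bases before the RefSeq start. The Trib3 match spans bases 15 to 22 after it. The Asns match lies in an exon of a GENCODE transcript. A match of letters is a description of the promoter and not a measured binding site, and the absence of a match says only that the letters are not in this window.

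The libraries were those of macrophages by their markers. All 10 macrophage markers were tested, and their summed level ran from 24488 to 35485 CPM (counts scaled to the size of the library) in the controls and from 30520 to 37632 CPM in the knock-in libraries. Gene by gene, 2 of the 10 had a positive and 8 a negative log2 fold change (median -0.046), and 0 were called. Markers of T and NK cells summed to 23.6 to 50.8 CPM over all libraries, and Gzma was at 0 in all of them. Markers of B and plasma cells summed to 220 to 364 CPM. Depth was 14.6 to 36.4 M estimated counts in the controls and 15.2 to 22.9 M in the knock-in libraries. Libraries stood apart in RNA of other cells: 10 stromal markers summed to 184 CPM in control 1, 184 CPM in control 4 and 110 CPM in knock-in 4, and to 1.43 to 24.8 CPM in the other 7. Neutrophil markers were also highest in these 3 libraries, at 294, 261 and 221 CPM, against 52.6 to 125 CPM in the others. The medians of the folding genes are given below with and without these 3 libraries. All 9 tested stromal markers had a negative log2 fold change, with a median of -1.369 and a median SE (standard error) of 1.216. All 7 tested neutrophil markers were also negative, with a median of -1.695 and a median SE of 0.877. In both lists 0 were called. Dendritic cell markers summed to 541 to 709 CPM in the controls and to 758, 765, 957, 1030 and 505 CPM in knock-in libraries 1 to 5. Of the 8 listed, 4 were tested, 0 were called and all 4 had a positive log2 fold change (median 0.403). Any part of such cells in the values of the members was not tested.

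None of the listed UPR and ER folding genes passed the test between wild-type and knock-in macrophages. In edgeR's quasi-likelihood test 0 of the 33 tested members had a Benjamini-Hochberg adjusted p under 0.05, where 10 of all 12411 tested genes did (0.0806%). The smallest adjusted p of a member was 0.814, for Ppp1r15a. DESeq2 and limma-voom also called 0 members. In edgeR 0 members had an unadjusted p under 0.05, against 771 of all tested genes (6.21%). The 5 knock-in libraries did not separate from the 5 controls for any of the 34 genes, and 164 of all tested genes separated (1.32%).

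The fitted differences were small and lay on both sides of 0. The log2 fold change of knock-in over control was positive for 16 members and negative for 17, with a median of -0.003, beside -0.005 over all tested genes. It ranged from -0.116 for Manf to 0.146 for Ppp1r15a. The standard error (SE) of a member was 0.049 to 0.188, with a median of 0.068. Over all members, the intervals of 2 SE stayed within -0.336 and 0.448 on the log2 scale, and both bounds belong to genes of low expression, Asns and Trib3. Among the 15 chaperones and disulfide isomerases the bounds lay between -0.317 and 0.227. The plot of fold changes shows every interval crossing 0.

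**Figure D1:**
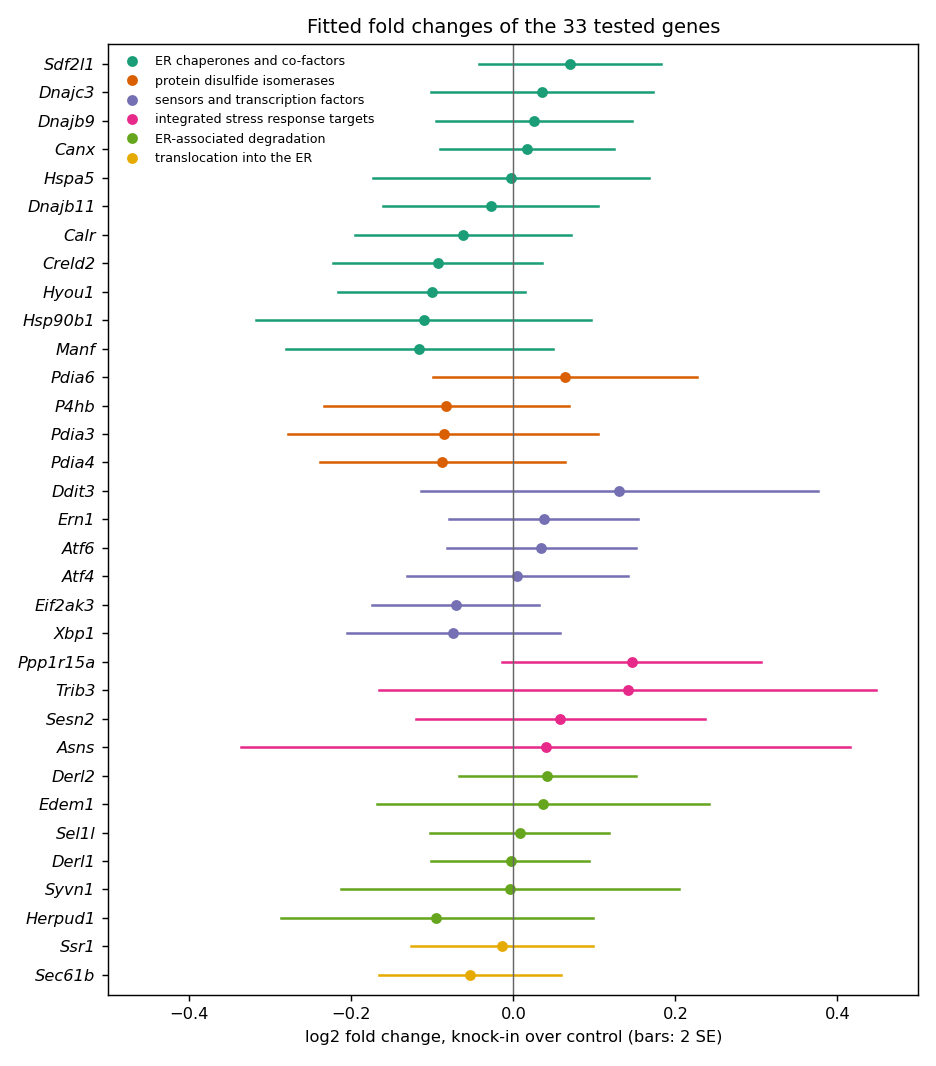
Fitted log2 fold change of knock-in over control macrophages (x axis) for the 33 tested genes (y axis), coloured by role; points are edgeR estimates from 5 libraries a group and bars are 2 SE. The points lie between -0.116 and 0.146, and every bar crosses 0.

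In these cultures the genes differed widely in level. Levels between genes are compared here as CPM per kb of exon, averaged over the 10 libraries. Calr, a calcium-binding lectin chaperone, was highest at 365 CPM per kb, rank 110 of all tested genes (the top 0.888%). Pdia3, the disulfide isomerase that works with the lectin chaperones, followed at 230, Hsp90b1 at 219, Hspa5 at 211 and P4hb, the classical protein disulfide isomerase, at 188 CPM per kb. The SD over the 5 controls was 39.4 for Pdia3, 41.2 for Hsp90b1 and 30.5 for Hspa5. These SDs describe the spread between mice and do not measure how firmly the genes are ordered within a library. With the length of the principal transcript in place of the exon union, an option chosen after seeing the data, Hsp90b1 (313) came before Pdia3 (261) and Hspa5 (242), and Calr stayed first at 481.

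Among the sensors and transcription factors, Atf4 at 56.6 and Xbp1 at 45.6 CPM per kb lay above the sensors Atf6 at 14.8, Ern1, which encodes IRE1, at 7.16 and Eif2ak3, which encodes PERK, at 5.35 CPM per kb. Ddit3, which encodes CHOP, was at 9.60 CPM per kb. The lowest members were ATF4-group targets: Sesn2 at 4.79, Asns at 4.51, Trib3 at 1.24 and Chac1 at 0.211 CPM per kb. Chac1 had only 4 to 14 estimated counts in a control library and 1 to 13 in a knock-in library.

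**Figure D2:**
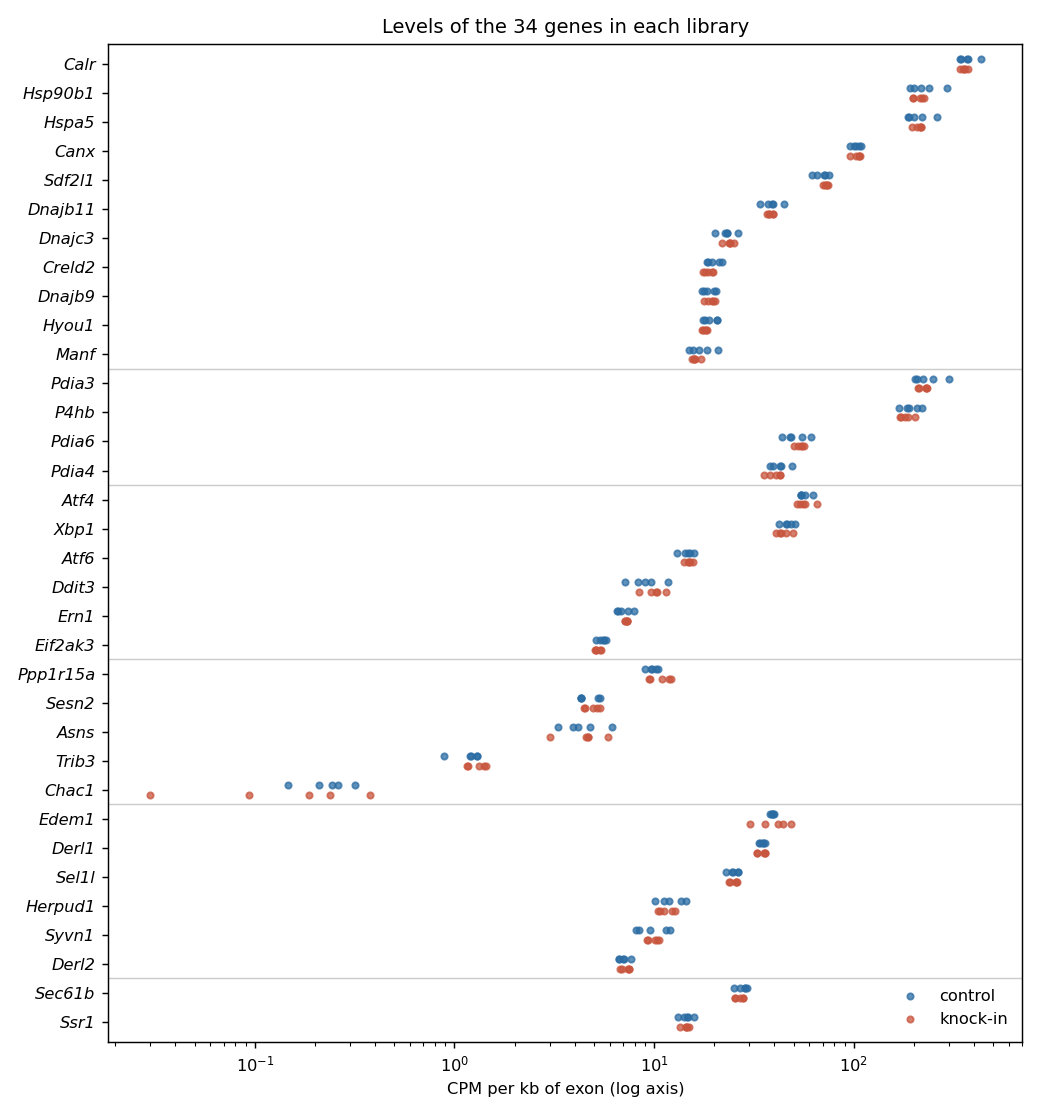
Level of each of the 34 genes in each library, as CPM per kb of exon on a log axis, ordered by role and level; blue points are the 5 control and red points the 5 knock-in libraries. Calr is highest at a mean of 365 and Chac1 lowest at 0.211 CPM per kb, and the colours overlap for every gene.

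No ER chaperone was called. Of the 11 tested, 4 had a positive and 7 a negative log2 fold change, and the median was -0.028. Hspa5 encodes BiP, the ER member of the Hsp70 family, which holds the UPR sensors inactive and is the usual readout of the response (ENSMUSG00000026864, chromosome 2, 34771970 to 34777547, plus strand, GRCm38). It was at 1099, 929.04, 787, 845 and 796 CPM in controls 1 to 5 and at 903, 832, 919, 916 and 877 CPM in knock-in libraries 1 to 5. Control 1 was highest and control 3 lowest, and all 5 knock-in libraries fell between them. The means were 891 ± 129 and 889 ± 36.4 CPM (SD, n = 5 each). The log2 fold change was -0.003 ± 0.085 (SE, edgeR adjusted p = 0.999), an interval of 2 SE from 0.887-fold to 1.123-fold.

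Hsp90b1 encodes GRP94, the ER paralog of Hsp90 that folds integrins and Toll-like receptors (ENSMUSG00000020048, chromosome 10, 86690209 to 86705509, minus strand). It was at 1185, 963, 769, 873 and 805 CPM in the controls and at 869, 796, 883, 907 and 801 CPM in the knock-in libraries. Control 1 again lay above all other libraries, and the knock-in values lay within the control range. The log2 fold change was -0.110 ± 0.103 (adjusted p = 0.891), and without control 1 it was 0.0 to the 3 decimals computed.

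The partners of BiP were also in overlapping ranges. Hyou1, the nucleotide exchange factor of BiP, was at 150, 130, 135, 150 and 127 CPM in the controls and at 129, 127, 132, 131 and 125 CPM in the knock-in libraries. No knock-in library lay above the control median, although the ranges overlapped (log2 -0.100 ± 0.058, adjusted p = 0.819). Sdf2l1, a subunit of the complex of BiP with the J-domain protein ERdj3, was at 79.5, 68.8, 78.8, 83.0 and 72.4 CPM in the controls and at 77.5, 80.0, 81.0, 82.8 and 80.3 CPM in the knock-in libraries. Its knock-in values were close together within the control range (log2 0.070 ± 0.056, adjusted p = 0.861). The J-domain co-chaperones Dnajb9, Dnajb11 and Dnajc3 had log2 fold changes of 0.025, -0.028 and 0.036.

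Manf and Creld2 are ER proteins whose secretion is known to rise under ER stress. Manf was at 74.0, 65.1, 52.7, 59.4 and 55.2 CPM in the controls and at 56.6, 54.3, 60.3, 56.0 and 55.6 CPM in the knock-in libraries. Controls 1 and 2 were the 2 highest libraries, and the other controls overlapped the knock-in values (log2 -0.116 ± 0.082, adjusted p = 0.853). Creld2 was at 29.9, 25.4, 26.6, 28.8 and 25.3 CPM in the controls and at 24.6, 26.8, 25.6, 26.8 and 23.9 CPM in the knock-in libraries. Controls 1 and 4 were highest here, and the groups overlapped (log2 -0.093 ± 0.064, adjusted p = 0.849). The lectin chaperones Calr and Canx had log2 fold changes of -0.062 ± 0.067 and 0.017 ± 0.053.

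The 4 protein disulfide isomerases, which form and shuffle disulfide bonds, had a median log2 fold change of -0.084, with 3 negative, 1 positive and 0 called. Without control 1, and also without the 3 libraries rich in stromal RNA, the median was -0.007 with 2 negative and 2 positive. P4hb was at 629, 528, 538, 593 and 481 CPM in the controls and at 489, 493, 538, 577 and 518 CPM in the knock-in libraries. Both the highest and the lowest of the 10 libraries were controls (log2 -0.083 ± 0.076, adjusted p = 0.886). Pdia4 was at 118, 102, 94.2, 104 and 91.8 CPM in the controls and at 103, 91.3, 97.7, 102 and 85.4 CPM in the knock-in libraries. Control 1 was highest and knock-in 5 lowest, and the remaining values overlapped (log2 -0.088 ± 0.076, adjusted p = 0.879). Pdia3 was 743 ± 124 against 700 ± 35.8 CPM, and Pdia6 192 ± 25.6 against 201 ± 8.6 CPM.

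Control 1 stood apart in the folding machinery. This pattern was chosen after the values were seen. It was the highest of the 10 libraries for 14 of the 15 chaperones and disulfide isomerases, the exception being Sdf2l1, and for 20 of the 33 tested members, where it was highest for 17.9% of all tested genes. It was the lowest library for 0 of the 15, for 2 of the 33 and for 17.5% of all tested genes. Over the mean of controls 2 to 5, control 1 was 1.39-fold for Hsp90b1, 1.35-fold for Pdia3, 1.31-fold for Hspa5, 1.27-fold for Manf and 1.26-fold for Pdia6. Summed over the 15 genes, the controls held 6626, 5619, 4994, 5482 and 5044 CPM and the knock-in libraries 5428, 5079, 5503, 5543 and 5260 CPM. The group means were 5553 ± 658 and 5363 ± 192 CPM, and controls 2 to 5 alone were at 5285 ± 313 CPM.

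Not every arm of the response was high in control 1. Ddit3 in control 1 was 0.742-fold, Herpud1 0.791-fold and Syvn1 0.817-fold the mean of the other controls, while Asns was 1.52-fold. Control 1 also held 184 CPM of stromal and 294 CPM of neutrophil markers. Control 4, with 184 and 261 CPM, held 5482 CPM of the 15 genes, and knock-in 4, with 110 and 221 CPM, held 5543 CPM. Neither was raised like control 1. The part of these cells in the values of control 1 was not tested. Without control 1 the median log2 fold change of the 11 chaperones was 0.027 in place of -0.028, with 7 positive and 4 negative, and without the 3 libraries rich in stromal RNA it was 0.039. Without control 3, the lowest library for 8 of the 11, it was -0.074 with 10 of 11 negative. In each of these fits 0 members were called.

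**Figure D3:**
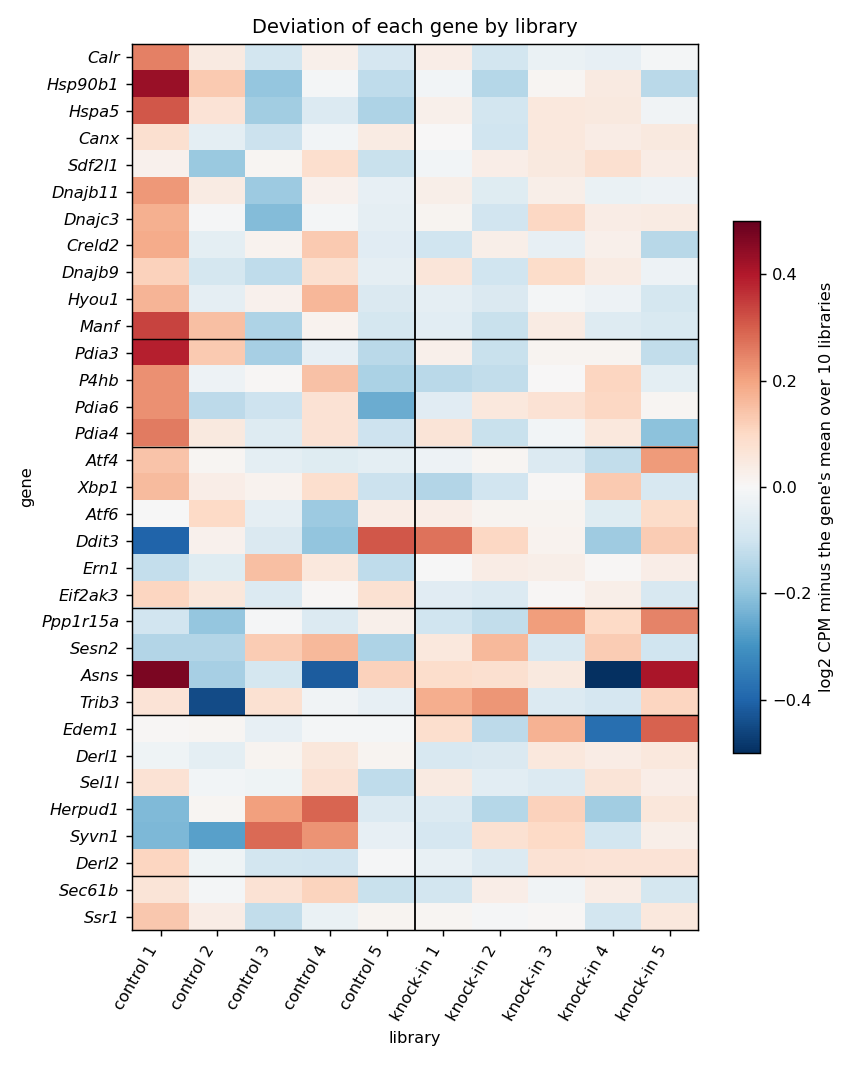
Log2 CPM of each tested gene in each library minus the gene's mean over the 10 libraries, as a colour from blue (lower) to red (higher); horizontal lines separate the roles and the vertical line separates 5 control from 5 knock-in libraries. The column of control 1 is red through 14 of the 15 chaperones and isomerases where it is the highest library, and blue for Ddit3, Herpud1 and Syvn1.

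**Figure D4:**
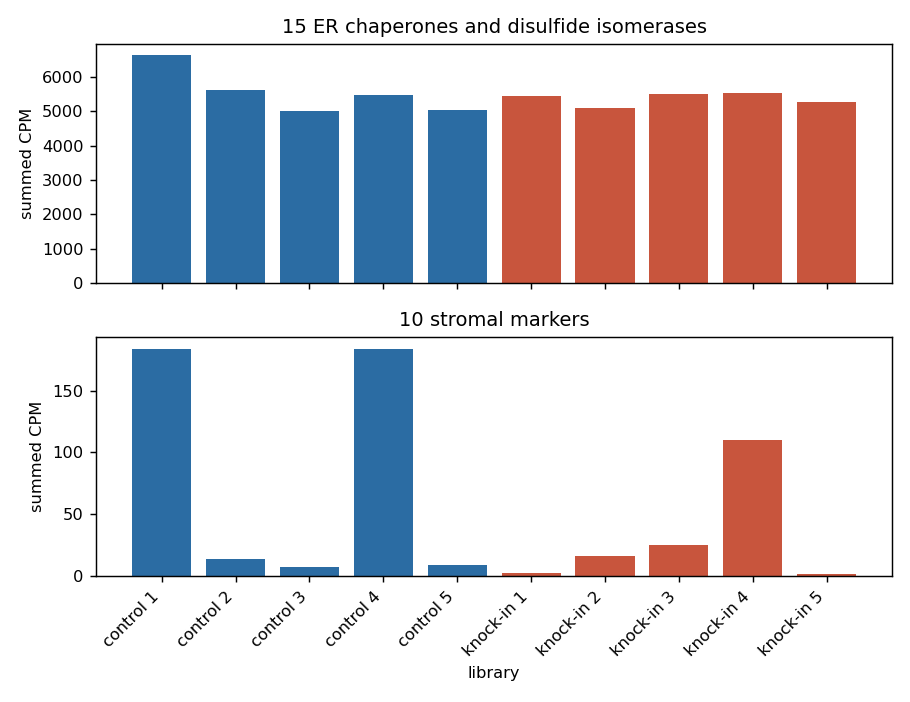
Summed CPM of the 15 ER chaperones and disulfide isomerases (top) and of 10 stromal markers (bottom) in each library; blue bars are controls, red bars knock-in libraries, with 1 bar a library and no error bar. Control 1 reaches 6626 CPM in the top panel against 4994 to 5619 in the other 9, while control 1, control 4 and knock-in 4 stand out in the bottom panel.

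Of the 6 sensors and transcription factors 0 were called, with 4 positive, 2 negative and a median log2 fold change of 0.020, which ran from -0.018 without knock-in 5 to 0.036 without knock-in 4. Ern1 and Atf6 had log2 fold changes of 0.038 ± 0.058 and 0.034 ± 0.058. Eif2ak3 was at 34.71, 33.49, 30.69, 32.33 and 33.99 CPM in the controls and at 30.96, 30.68, 32.34, 32.85 and 30.44 CPM in the knock-in libraries. The knock-in values all lay below the control median and overlapped the lower controls (log2 -0.071 ± 0.052, adjusted p = 0.856). Xbp1 mRNA is the substrate of IRE1, and XBP1 is 1 of the factors known to raise chaperone and degradation genes. Xbp1 was at 165, 151, 149, 157 and 137 CPM in the controls and at 133, 138, 148, 162 and 140 CPM in the knock-in libraries. Knock-in 4 exceeded all controls but control 1 (log2 -0.074 ± 0.066, adjusted p = 0.882).

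Atf4, whose translation rises when PERK is active, was at 147, 134, 129, 128 and 129 CPM in the controls and at 131, 134, 127, 122 and 154 CPM in the knock-in libraries. The knock-in group held both the highest and the lowest library (log2 0.005 ± 0.068, adjusted p = 0.996). Ddit3 encodes CHOP, a factor of prolonged ER stress. It was at 12.3, 16.5, 15.5, 14.2 and 20.2 CPM in the controls and at 19.7, 17.5, 16.5, 14.4 and 17.8 CPM in the knock-in libraries. The controls held both extremes, and 4 of 5 knock-in libraries were above the control median (log2 0.131 ± 0.122, adjusted p = 0.891, an interval from 0.924-fold to 1.297-fold).

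Targets of the integrated stress response, the branch that ATF4 serves, had positive fold changes for all 4 tested members and a median of 0.100, with 0 called and a median SE of 0.121. The median was 0.041 without control 2, 0.160 without control 1 and 0.016 on the deposited log2 values. The 26 other tested targets of this response had 12 positive and 14 negative fold changes and a median of -0.001. Ppp1r15a encodes GADD34, the phosphatase subunit that restores translation (ENSMUSG00000040435, chromosome 7, 45522916 to 45526268, minus strand). It was at 28.19, 26.31, 30.03, 28.7 and 30.68 CPM in the controls and at 28.1, 27.7, 34.9, 32.3 and 35.8 CPM in the knock-in libraries. Knock-in libraries 3, 4 and 5 lay above all controls, and knock-in 1 and 2 lay inside the control range. The log2 fold change was 0.146 ± 0.080 (edgeR adjusted p = 0.814). In the deposited log2 table the same difference was -0.051, and control 2, lowest in CPM, was the highest library there at 9.56 against 9.13 to 9.35 in the others.

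Asns, the enzyme that makes asparagine, was at 16.8, 10.7, 11.3, 9.02 and 13.1 CPM in the controls and at 12.8, 12.7, 12.5, 8.25 and 16.1 CPM in the knock-in libraries. Control 1 was highest and knock-in 4 lowest, so the extremes belonged to different groups (log2 0.040 ± 0.188, adjusted p = 0.985). Trib3, a pseudokinase that restrains ATF4, was at 2.75, 1.89, 2.76, 2.58 and 2.53 CPM in the controls and at 2.97, 3.06, 2.49, 2.46 and 2.82 CPM in the knock-in libraries. Control 2 lay below all others, and the remaining values overlapped (log2 0.141 ± 0.154, adjusted p = 0.899). Chac1, which degrades glutathione, held 7, 10, 4, 14 and 8 counts in the controls and 1, 6, 7, 3 and 13 counts in the knock-in libraries. That is 0.386 ± 0.104 and 0.304 ± 0.221 CPM, and the groups overlapped. With no low-count filter, edgeR gave Chac1 a log2 fold change of -0.347 ± 0.511 (adjusted p = 0.866). Sesn2, a stress-induced regulator of growth signalling, had a log2 fold change of 0.058 ± 0.089.

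Genes of ER-associated degradation, which return misfolded proteins to the cytosol for the proteasome, had 3 positive and 3 negative fold changes with a median of 0.002, and 0 were called. With 1 library left out that median ran from -0.013 (knock-in 5) to 0.027 (control 4). Herpud1, a scaffold of the degradation complex, was at 23.6, 27.6, 31.7, 33.6 and 26.2 CPM in the controls and at 26.2, 24.9, 29.8, 24.3 and 28.6 CPM in the knock-in libraries. The controls again held both extremes (log2 -0.095 ± 0.096, adjusted p = 0.891). The ubiquitin ligase Syvn1 (HRD1) and its adaptor Sel1l had log2 fold changes of -0.004 ± 0.105 and 0.008 ± 0.055. The derlins Derl1 and Derl2 were at -0.003 ± 0.049 and 0.042 ± 0.055. The translocation genes Sec61b, a subunit of the protein-conducting channel, and Ssr1, of the TRAP complex, were at -0.053 ± 0.056 and -0.014 ± 0.056, and neither was called.

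Edem1, a lectin that marks misfolded glycoproteins for degradation, had unlike spreads in the groups, an observation made after its values were seen. It was at 255, 256, 247, 253 and 252 CPM in the controls and at 269, 232, 286, 195 and 312 CPM in the knock-in libraries. The controls all lay between 247 and 256 CPM, and the knock-in libraries lay on both sides of them (log2 0.037 ± 0.103, adjusted p = 0.966). The SD of log2 CPM was 0.0206 in the controls and 0.267 in the knock-in libraries, a ratio of 13.0 that 0.0403% of all tested genes reached. In the deposited log2 table the SDs were 0.174 and 0.226, so the narrow control range was not present there. Edem1 lies on chromosome 6 (108828641 to 108859356, plus strand, GRCm38), 4.21 Mb from Gt(ROSA)26Sor, a non-coding RNA gene at which transgenes are often placed. The relation of that distance to the spread was not tested.

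By the median, the members varied less between mice than all tested genes, though not every member did. The members' median SD of log2 CPM was 0.12 in the controls and 0.0727 in the knock-in libraries, beside 0.162 and 0.121 over all tested genes. For the 15 chaperones and isomerases the medians were 0.142 in the 5 controls, 0.106 without control 1 and 0.064 in the knock-in libraries. These are descriptions, and the genes compared were not matched for level.

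Across the 10 libraries, 8 pairs of a regulator and a target, or of genes within and across arms, were compared. Log2 CPM of Hspa5 and Hsp90b1 rose and fell together, with Pearson's r = 0.94 (2-sided permutation p = 0.00029, adjusted over the 8 pairs 0.00232) and Spearman's rho = 0.90 (permutation p = 0.00081, adjusted 0.00648). Without control 1 and control 3, the libraries farthest from the median of Hspa5, r was 0.77 (exact permutation p = 0.0291, adjusted 0.233). Within the 7 libraries low in stromal RNA r was 0.85 (exact permutation p = 0.0167, adjusted 0.134), and with group means removed it was 0.99. Both genes hold the ER stress elements printed above, which is a description and no test of shared control.

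Atf4 and Asns, a factor and its known target, gave r = 0.81 (permutation p = 0.00587, adjusted 0.0235) and rho = 0.71 (permutation p = 0.0271, adjusted 0.108). Without control 1 and knock-in 5, the libraries farthest from the median of Atf4, r was 0.59 and did not pass the threshold (exact permutation p = 0.127, adjusted 0.508). Within the 7 libraries low in stromal RNA r was 0.73 (exact permutation p = 0.108). The other 6 pairs had a permutation p above the threshold. Their r was 0.40 for Xbp1 and Dnajb9, 0.32 for Hspa5 and Asns, 0.23 for Atf4 and Trib3, 0.16 for Atf6 and Hspa5, -0.03 for Ddit3 and Chac1 and -0.48 for Atf4 and Sesn2.

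**Figure D5:**
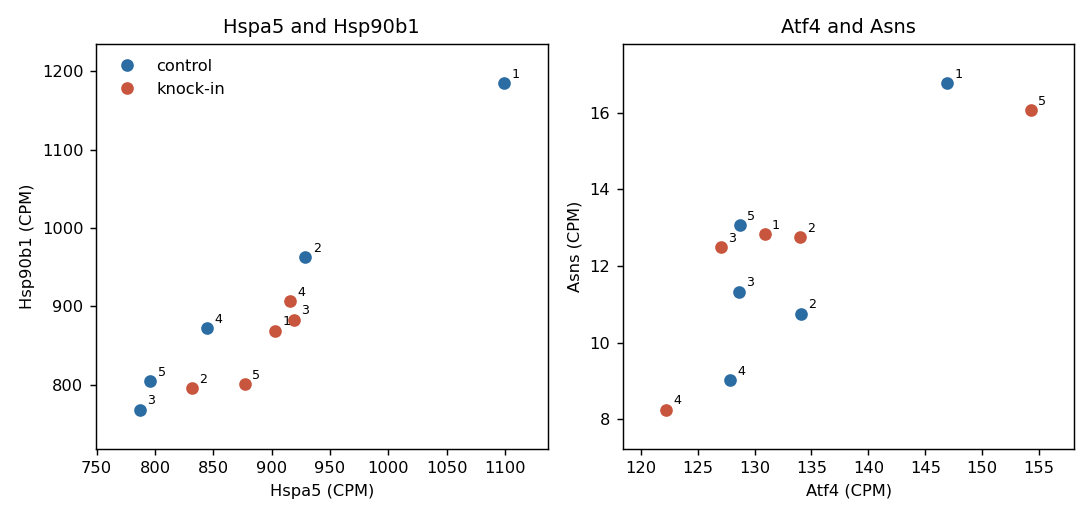
CPM of Hspa5 against Hsp90b1 (left) and of Atf4 against Asns (right) in the 10 libraries, each point labelled with its replicate number; blue points are controls and red points knock-in libraries. Control 1 is at the upper right in the left panel (1099 and 1185 CPM), and control 1 and knock-in 5 are at the upper right in the right panel.

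Beyond the 34 genes, 116 further genes of the same pathways were listed, and 0 of the 110 tested were called by edgeR. An unadjusted p under 0.05 was found for 10 (9.09%, against 6.21% of all tested genes). The groups did not overlap for 4 of the 110, against 164 of all 12411 tested genes (1.32%). Fold changes were positive for 43 and negative for 67 (60.9% negative, against 51.7% of all tested genes), with a median log2 of -0.025. The 2 smallest p values belonged to genes of oxidative folding. Tmx1, a membrane-bound disulfide isomerase, was at 65.2, 57.7, 69.1, 80.0 and 84.2 CPM in the controls and at 92.8, 87.8, 93.1, 95.2 and 93.1 CPM in the knock-in libraries. All knock-in libraries lay above all controls (log2 0.376 ± 0.088, edgeR adjusted p = 0.319, DESeq2 adjusted p = 0.0288), and the adjusted p ranged from 0.0288 to 0.751 over the alternatives.

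Ero1a, the oxidase that recharges protein disulfide isomerase, was at 85.6, 63.1, 56.9, 69.8 and 61.8 CPM in the controls and at 90.9, 83.5, 89.0, 88.6 and 88.7 CPM in the knock-in libraries. Only control 1 reached the knock-in range (log2 0.386 ± 0.092, edgeR adjusted p = 0.323). Ero1a was called by DESeq2 (adjusted p = 0.0288), by edgeR without control 1 (log2 0.487, adjusted p = 0.00511) and by edgeR without the 3 libraries rich in stromal RNA (log2 0.539, adjusted p = 0.00226). In the deposited log2 table its difference was 0.183 with a limma-trend adjusted p of 0.827. P4hb, the partner that Ero1a oxidizes, had a log2 fold change of -0.083 as given above.

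In the remaining lists edgeR called 0 genes, and the 2 of each with the smallest p are named. Among sensors and regulators, Eif2ak4, the kinase GCN2 that senses uncharged tRNA, was at 31.3 ± 0.488 against 28.7 ± 0.524 CPM without overlap of the groups (log2 -0.126 ± 0.044, adjusted p = 0.700). Mbtps2, a protease that cuts ATF6, had a log2 fold change of 0.118. Among stress response targets, the secreted factor Gdf15 was at 6.57 ± 2.57 against 9.89 ± 1.38 CPM (log2 0.604 ± 0.234, adjusted p = 0.741), and the tRNA synthetase Gars1 had a log2 fold change of -0.145. For degradation, the ER lectin Erlec1 and the ubiquitin-conjugating enzyme Ube2j2 did not pass the test but had groups that did not overlap (log2 -0.215 and -0.134, adjusted p = 0.700 and 0.768). Without control 1 the values were -0.143 and -0.083. For translocation, Tram1 had a log2 fold change of 0.140 ± 0.053 (edgeR adjusted p = 0.721). Sec61g was low, at 6.87 ± 1.71 against 4.99 ± 1.3 CPM (log2 -0.460 ± 0.211, edgeR adjusted p = 0.795). For both genes the groups overlapped.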

How the data were processed

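Gene expression was measured by strand-specific, poly(A)+ RNA sequencing with 100-bp paired-end reads, per the labels. The deposited count table holds estimated counts per gene, and Salmon 1.6.0, MultiQC and, without a role, the builds GRCm39 and mm10 are named in the submitters' processing notes. The deposited log2 table holds values on the regularized-log scale, with DESeq2 1.34.0 named in the submitters' processing notes. Strand handling, annotation and gene-level summing were not given in the sources used here.

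For testing, estimated counts were rounded to whole numbers and analysed in edgeR 4.0.16 (R 4.3.3, limma 3.58.1): TMM factors, filterByExpr (minimum count 10, minimum total 15), robust dispersion, and the quasi-likelihood test of genotype over 10 libraries, with Benjamini-Hochberg adjustment over 12411 genes and a threshold of 0.05. The SE was taken as the absolute log2 fold change over the root of the F statistic. Log2 CPM used a prior count of 2. The labels count 5 mice a group. No library was a copy of another in its group (chi-square per gene between pairs, 8.75 to 54.5). Coordinates and exon lengths are those of GENCODE M21 (GRCm38), assigned by gene ID.

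The members and lists were chosen with earlier results of these data known. Values in every library are printed for the 12 members with the smallest p and for Hspa5, Hsp90b1, Xbp1, Atf4, Ddit3, Asns, Trib3 and Chac1, and the 2 genes with the smallest p of each further list are named. Edem1 and the pattern of control 1 were chosen after their values were seen. As alternatives, DESeq2 1.42.0, limma-voom, RLE or upper-quartile factors, 2 other filters, dispersion without robust weights, the replicate number as a block and limma-trend (deposited log2 table) were run. Each library was left out in turn, as were control 1, control 4 and knock-in 4 together. The fits were run on simulated data with known fold changes before use, and the recovery is not reported here. The simulated libraries held no shared differences such as those in stromal RNA. Runs of 31 bases shared with other genes of the annotation made up 23.5% of Sec61b (mostly with Gm10320), 10.8% of Dnajb9 and 8.60% of Derl1, so the split of their counts is uncertain. Such runs made up 4.56% of Ddit3, with 4.38% shared with another annotated gene also named Ddit3. On the opposite strand, 8.43% of Hsp90b1, 7.25% of Manf and 6.66% of Eif2ak3 overlapped other genes.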

Additional observations from a re-analysis of the deposited data

Results flagged for a closer look

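Trib3 in control 2 was at 1.89 CPM, and the next lowest control was at 2.53 CPM. This gap is 0.743 of the range of the 5 controls, above Dixon's critical value of 0.71. Trib3 in control 2 was the 1 value so marked among 68 groups of 5 examined, and chance marks about 1 in 20 groups.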

How the results depend on the processing

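No member was called under any of the 20 alternatives, and the lowest adjusted p of a member in any of them was 0.577. The median log2 fold change of the members ranged from -0.025 to 0.039. Calls over all genes numbered 10, and were 52 with DESeq2, 38 without the 3 libraries rich in stromal RNA, and 6 to 23 with 1 library left out (6 without control 2 or knock-in 1, 2 or 3, and 23 without knock-in 4). Further pathway genes called numbered 0, and were 2 with DESeq2 (Ero1a and Tmx1), 1 without the 3 libraries and 0 to 1 with 1 library left out (Ero1a without control 1). With the replicate block 0 members and 12 genes in all were called. The labels do not say that the numbers pair mice. Deviations of same-numbered libraries correlated at -0.209, -0.0333, 0.0691, 0.546 and 0.268, which cannot show whether mice were paired. Control 4 and knock-in 4 are both rich in stromal RNA.

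The sign held in every alternative for 15 members and changed for 18, all with intervals that include 0, and the cause was not tested. Values of the other sign were as follows. With upper-quartile factors they were 0.003 for Hspa5, 0.002 for Syvn1 and 0.003 for Derl1. With limma-voom they were 0.008 for Hspa5 and 0.012 for Syvn1, and with the replicate block 0.008 and 0.009. On the deposited log2 values they were 0.041 for Hspa5, -0.035 for Canx, -0.037 for Dnajb9, 0.008 for Dnajb11, -0.051 for Ppp1r15a and -0.044 for Derl2, and 6 of 33 members (18.2%) changed sign there, beside 15.2% of all genes in both tables. Without the 3 libraries rich in stromal RNA they were 0.077 for Hspa5, 0.019 for Calr, 0.003 for Pdia3, 0.052 for Dnajb11, 0.028 for Syvn1 and 0.039 for Ssr1.

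With 1 library left out, the log2 fold change ran from -0.045 to 0.086 for Hspa5, -0.168 to 0.0 for Hsp90b1, -0.007 to 0.043 for Canx, -0.136 to 0.014 for Pdia3, -0.003 to 0.059 for Dnajb9, -0.074 to 0.027 for Dnajb11 and -0.01 to 0.09 for Dnajc3. It ran from -0.003 to 0.065 for Atf6, -0.052 to 0.044 for Atf4, -0.07 to 0.187 for Asns, -0.068 to 0.07 for Syvn1, -0.022 to 0.029 for Sel1l, -0.039 to 0.121 for Edem1, -0.018 to 0.016 for Derl1 and -0.045 to 0.022 for Ssr1.

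Among the pairs, r of Ddit3 and Chac1 was 0.095 with group means removed and ran from -0.226 to 0.536 with 1 library left out. For Hspa5 and Asns it ran from -0.167 to 0.488, and was -0.021 without the 3 libraries. For Xbp1 and Dnajb9 it was -0.273 without the 3 libraries and 0.766 on the deposited log2 values, and for Atf6 and Hspa5 -0.125 on the deposited values. For Hspa5 and Hsp90b1 r was 0.77 without the 2 libraries farthest from the median, and 0.835 to 0.986 in the other settings.

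Depth limits Chac1 and Trib3 most: Chac1 had at most 14 and Trib3 39 to 91 estimated counts in a control library. Level per kb depends on the length taken, and for Sec61b it was 27.2 with the exon union and 61.3 with the principal transcript.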

Other observations

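The cytosolic heat shock genes, which answer to HSF1 and unfolded proteins outside the ER, were listed for comparison. Of 13 listed, 12 were tested and 0 were called by edgeR, with 1 unadjusted p under 0.05, 5 positive and 7 negative fold changes and a median log2 of -0.024. Bag3, a co-chaperone of Hsp70 that links it to selective autophagy, averaged 70.9 ± 5.86 CPM in control and 81.3 ± 7.04 CPM in knock-in macrophages (log2 0.198 ± 0.072, adjusted p = 0.700), and the groups overlapped. Dnaja1, a cytosolic J-domain protein, was at 150 ± 21.1 and 136 ± 4.78 CPM (log2 -0.140 ± 0.084, adjusted p = 0.829). Immediate-early genes, which rise when cells are disturbed at harvest, summed to 967 to 1085 CPM in control and 981 to 1046 CPM in knock-in macrophages. Of 9 tested, 0 were called, with 1 unadjusted p under 0.05.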
